A study of Mus musculus with 6 samples.

Results

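The data on 10 genes of the heat shock response and of general protein folding are described in acinar cells of the mouse pancreas, which secrete the digestive enzymes. The genes were taken by symbol from the 55367 symbols of each count file, and all 10 were present: the HSP70 genes Hspa1a, Hspa1b and Hspa8, the HSP90 genes Hsp90aa1 and Hsp90ab1, the J-protein genes Dnaja1 and Dnajb1, the small heat shock protein gene Hspb1, and the mitochondrial chaperonin genes Hspd1 and Hspe1. The data are 6 RNA-seq libraries of 1 group, made from 300 sorted GFP-positive cells each. The cells came from the pancreas of mice that received no treatment and had the genotype Pdx1-Cre; Klf5-mCherry-CreERT2, so no heat shock or other stress arm stands beside them. Strain, age and sex are not given in the sources used here, and the genotype names no GFP reporter. Pdx1 is active in the progenitors of acinar, ductal and endocrine cells, so Pdx1-Cre is not specific to acinar cells, and CreERT2 was placed at Klf5. The labels do not tie the libraries to different mice, and p-values therefore measure only the spread between these samples, which may be technical.

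Chaperones bind unfolded protein and release it for folding in cycles driven by ATP. HSP70 takes up short stretches of unfolded chain that J-proteins hand over, HSP90 finishes a set of client proteins such as kinases and steroid receptors, and small heat shock proteins hold unfolded protein without using ATP. Some of these genes are constitutive, which means that they are expressed in unstressed cells (Hspa8, Hsp90ab1, Dnaja1), whereas others are classed as inducible because the heat shock factor HSF1 raises them strongly after heat or proteotoxic stress (Hspa1a, Hspa1b, Dnajb1, Hspb1 and, in part, Hsp90aa1). HSF1 binds heat shock elements, which are inverted repeats of the unit nGAAn.

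The libraries held 4670819 to 7072270 counts each. Ribosomal RNA genes took 38.1% to 60.9% of them. Levels are given in TPM, which are counts divided by exon length and brought to the same total in each library, and 3 counts correspond to 0.424 to 0.642 CPM. A background was estimated from olfactory and vomeronasal receptor genes, which acinar cells are not known to use. Per Mb these spans held 327 counts in replicate 5 and 26.4 to 109 in the other 5 libraries. A number in the library names, of unstated meaning, parts replicates 1 to 3 (set A) from replicates 4 to 6 (set B). Of the acinar markers, 10 of 10 (among them Ctrb1, Prss2, Cpa1 and Ptf1a) averaged 1 TPM or more, and their summed level was 287000 to 330000 TPM in set A and 111600 to 176900 TPM in set B. Among markers of other cells the endocrine list, led by Ins2, stood out with 1005 TPM in replicate 4 and 2237 TPM in replicate 6 against 9.46 to 41.5 TPM in the other 4 libraries. In those 4 libraries the ductal list, led by Spp1, had the higher sum, 70.1 to 104 TPM. The ductal sum was 176.8 TPM in replicate 4 and 54.4 TPM in replicate 6.

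The sequences of the inducible genes set limits on what their counts can show, and are given first. Hspa1a and Hspa1b, the stress-inducible HSP70 genes, lie beside each other on chromosome 17 (build mm10, GRCm38), Hspa1a at 34969190 to 34972156 and Hspa1b at 34956436 to 34959238, both on the minus strand and both with 1 exon and no intron. Their coding sequences of 1923 and 1926 bases were identical at 1915 of 1926 aligned positions (99.4%), whereas Hspa1b and the constitutive Hspa8 were identical at 1437 of 1938 (74.1%). The stretch below shows coding bases 126 to 185 of each, with capitals at bases that differ from Hspa1b. It holds the first place where Hspa1a and Hspa1b differ by a substitution, and shows how little separates these genes and how clearly both differ from Hspa8 (GENCODE transcripts, release M21).
Hspa1b: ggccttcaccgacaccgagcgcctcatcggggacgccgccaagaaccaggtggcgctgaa
Hspa1a: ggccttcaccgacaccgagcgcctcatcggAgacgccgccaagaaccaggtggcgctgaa
Hspa8: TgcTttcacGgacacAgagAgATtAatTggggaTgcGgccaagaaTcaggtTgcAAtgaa
In this stretch Hspa1a differed from Hspa1b at 1 base and Hspa8 at 15. The copies also share their promoters. RefSeq start-site windows were found for 7 of the 10 genes (GRCm38.p6), Hspa8, Hsp90aa1 and Hsp90ab1 having none in the table. The 120 bases before the start sites of Hspa1a (chr17:34972157-34972276, minus strand) and Hspa1b (chr17:34959239-34959358, minus strand) agreed at 119 positions. They are shown with those of Hspb1 (chr5:135887799-135887918, plus strand) because, of the inducible genes with a window, these have the lowest and the highest mean TPM. Capitals mark matches to GAANNTTC, a pair of facing heat shock units, which reads the same on both strands.
Hspa1a: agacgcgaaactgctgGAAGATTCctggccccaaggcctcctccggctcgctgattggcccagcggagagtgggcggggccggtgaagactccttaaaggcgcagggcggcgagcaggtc
Hspa1b: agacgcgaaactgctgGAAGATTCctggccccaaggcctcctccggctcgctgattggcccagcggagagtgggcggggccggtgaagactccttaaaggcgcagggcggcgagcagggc
Hspb1: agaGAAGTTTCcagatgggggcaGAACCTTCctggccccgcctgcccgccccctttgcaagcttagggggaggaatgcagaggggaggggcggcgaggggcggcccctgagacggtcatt
GAANNTTC occurred in 6 of the 11 windows of 250 bases before a start site of these 7 genes, counting several start sites for some genes, and in 6.69% of 32851 such windows of all genes. Of the 3 windows of the constitutive Dnaja1, 1 held a match, while the windows of the inducible Dnajb1 held none. A window of Hspd1 and that of Hspe1 held the same place. The longer element of 3 alternating units, in which GAANNTTC is followed by NNGAA, occurred on either strand in 0.466% of windows. Among the 7 genes it was found for Hspd1 and Hspe1, at 1 shared place of 18 bases (chr1:55088059-55088076) between the Hspe1 start and a start site of Hspd1, which runs the other way. The 30 bases around it are shown with the overlapping matches in capitals (chr1:55088053-55088082, plus strand).
Hspd1-Hspe1 element: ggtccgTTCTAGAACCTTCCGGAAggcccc
A match is a string of letters and not a measured binding site.

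Several of these genes have copies elsewhere in the genome, and the handling of reads that align to more than 1 place is not stated. On the main transcript of each gene (the coding transcript with the longest coding sequence), read starts of 50 bases were therefore checked for exact matches in the transcripts of other genes and for overlap with the counted spans of other genes. Free of both were 99.6% of starts in Dnajb1 and 95.5% in Hsp90ab1. In the HSP70 genes the free share was 25.2% for Hspa8, 37.7% for Hspa1b and 23.1% for Hspa1a. It was 39.6% in Hspb1, 41.5% in Hsp90aa1, 48.4% in Hspe1, 55.2% in Hspd1 and 69.5% in Dnaja1. Most of the shared starts of Hspa1b (62.3% of all its starts) were shared with Hspa1a, and 75.0% of the exon of Hspa1a also lay inside Gm20481, a gene model on the opposite strand that had no counts. The shared starts of Hspa8 matched processed pseudogenes, which are intronless copies of an mRNA, chiefly Gm15459 (70.0% of starts), and those of Hspb1 matched Hsp25-ps1 (58.9%). Gm15459 had 11 counts over the 6 libraries against 1372 for Hspa8, and Hsp25-ps1 had 3 against 248 for Hspb1. Gm8355, which matched 46.0% of the Hspa8 starts, had 0 counts, as had Gm12346, which matched 51.5% of the starts of Hsp90aa1 (959 counts). Whether shared reads were counted is not stated and was not tested. If they were left out, levels by exon length are too low for genes with many shared starts. Levels were therefore also compared between genes per free read start.

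**Figure D1:**
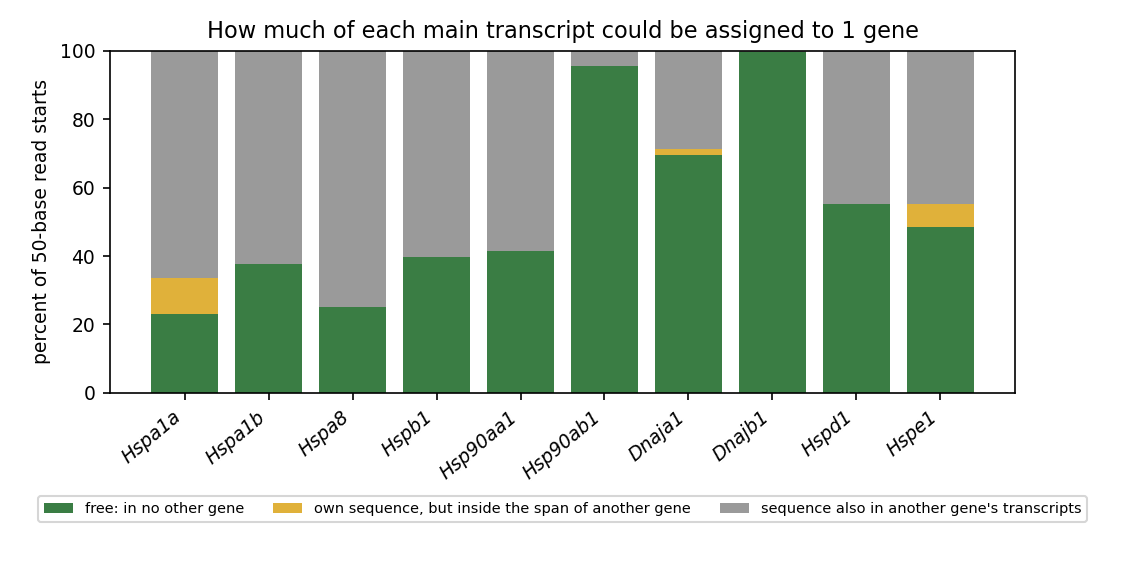
Share of 50-base read starts on the main transcript of each gene (vertical axis, percent) that lie in no other gene, that have their own sequence but lie inside the span of another gene, or whose sequence also occurs in transcripts of another gene. Dnajb1 (99.6% free) and Hsp90ab1 (95.5% free) are almost wholly assignable, while the free share is 23.1% in Hspa1a and 25.2% in Hspa8.

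The inducible HSP70 genes had counts close to the floor in these libraries, while the constitutive HSP70 gene was well expressed. Hspa8, which encodes the HSC70 protein of unstressed cells (chromosome 9, 40800984 to 40810087), had 9.70 TPM in the lowest library, a median of 15.5 TPM and 18.3 TPM in the highest, with a mean of 15.3 ± 3.03 TPM (SD, n = 6). Its lowest value was in replicate 5, and the other 5 libraries lay at 15.1 TPM or above. It ranked 449th of 21945 nuclear protein-coding genes by mean TPM. In these libraries of sorted cells, fewer cells of a type and less RNA per cell cannot be told apart.

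Hspa1a had 2, 4, 1, 4, 4 and 4 counts in replicates 1 to 6, or 0.347 ± 0.197 TPM. Hspa1b had 3, 4, 6, 16, 3 and 14 counts, or 0.819 ± 0.606 TPM. Most of these libraries were thus at or near the 3 counts that a value of 0 still allows, and only replicates 4 and 6 held more than 6 counts of Hspa1b. Background accounted for an expected 9.07% of the Hspa1a counts and 3.54% of the Hspa1b counts over all libraries. Its part was larger in replicate 5, at an expected 0.969 of the 4 Hspa1a counts and 0.916 of the 3 Hspa1b counts. Because most of their sequence is shared, the copies are also given as a sum, which was 0.394 TPM in the lowest library and 2.09 TPM in the highest (mean 1.17 ± 0.680), from 65 counts in all. If shared reads were left out of the counts, the sum does not bring them back and is too low.

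The within-library difference from Hspa8 on the scale of log2(TPM + 1) was -3.59 ± 0.47 (SD, n = 6) for Hspa1a and -3.20 ± 0.44 for Hspa1b. Both differences had 1 direction in 6 of 6 libraries (exact two-sided sign-flip test over the libraries, p = 0.031, the smallest that 6 libraries allow, adjusted p = 0.0469 over 6 pairs). Every pair that passed had this smallest p, so its adjusted p depended on how many of the chosen pairs reached it. The added pseudocount of 1 understates these folds. Per kb of exon, counts pooled over the libraries gave 49.8 times as much Hspa8 as Hspa1a (exact Clopper-Pearson 95% interval 31.8 to 83.0) and 19.4 times as much Hspa8 as Hspa1b (14.5 to 26.7). These intervals cover counting error only. Against the sum of the copies, Hspa8 was 8.25 to 38.3 times as high by TPM (median 13.7), and the lowest ratio was in replicate 6. Per free read start, the ratio to the pooled copies was 36.3 to 167 times (median 59.5), a wider gap than by exon length. That scale divides all counts of a gene by the free starts of its main transcript alone. By whole gene span the log2 differences from Hspa8 were smaller, at -2.96 for Hspa1a and -2.49 for Hspa1b, so the size of the gap rested on the length used. The Hspa1a minus Hspa1b difference was -0.38 ± 0.44, with Hspa1a lower in 5 of 6 libraries, and was not past the exact test (p = 0.125, adjusted p = 0.15).

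**Figure D2:**
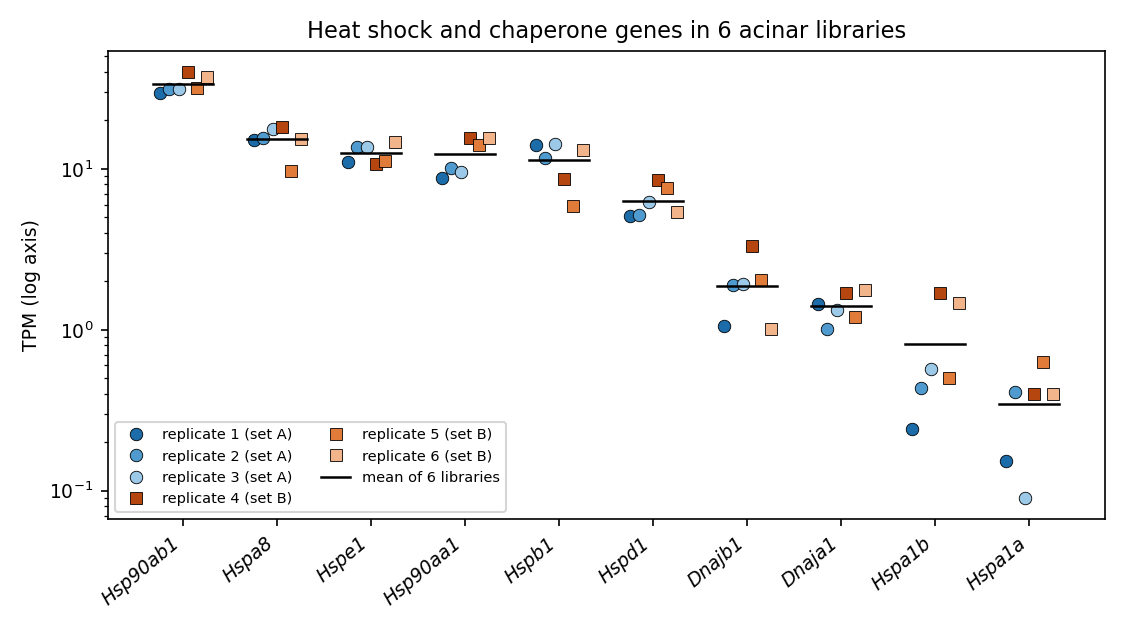
TPM of the 10 genes (vertical log axis) in each of the 6 libraries, with circles for set A, squares for set B and a bar at the mean. On this exon-length scale Hsp90ab1 is highest with a mean of 33.6 TPM (per free read start Hspa8 and Hspe1 lie above it), a middle group lies between 6.34 and 15.3 TPM, and Hspa1b and Hspa1a lie lowest with means of 0.819 and 0.347 TPM. Per free read start Hspa1b (2.21 TPM) lies above Dnajb1 (2.05 TPM).

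The rest of the HSP70 family, on a list of 12 further HSP70 and HSP110 genes, was uneven. Hspa5, the HSP70 of the endoplasmic reticulum known as BiP, led it with 40.6 ± 6.81 TPM, above Hspa8 on exon length. Hspa9, the mitochondrial HSP70, had 5.62 ± 1.72 TPM, and Hyou1, an HSP110 of the endoplasmic reticulum, 3.46 ± 0.844 TPM. Of the 12 genes, 5 averaged 1 TPM or more and the median was 0.898 TPM, compared with 32.3% and 0.493 TPM over all protein-coding genes.

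The HSP90 genes were the opposite case, with counts of both forms well above the floor (959 for Hsp90aa1 and 2046 for Hsp90ab1 in all). Hsp90ab1, the constitutive HSP90 beta gene (chromosome 17, 45567775 to 45573271), was the highest of the 10 by TPM on exon length, with 29.6 TPM in the lowest library, a median of 31.7 and 40.01 in the highest (mean 33.6 ± 4.10, SD, n = 6). Per free read start it was not the highest, since Hspa8 reached 111 ± 22.1 and Hspe1 52.4 ± 7.30 TPM against 42.7 ± 5.21 TPM for Hsp90ab1. Its coefficient of variation, 12.2%, was the lowest of the 10. Hsp90aa1, the HSP90 alpha gene that stress can raise (chromosome 12, 110690605 to 110702728), had 8.78 TPM in the lowest library, a median of 12.1 and 15.6 in the highest (mean 12.3 ± 3.14). The beta gene was thus higher in every library, and the ranges did not meet.

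Hsp90aa1 minus Hsp90ab1 was -1.41 ± 0.22 on the log2(TPM + 1) scale, lower in 6 of 6 libraries (exact sign-flip p = 0.031, adjusted p = 0.0469). Counts pooled per kb of exon gave 2.80 times as much beta as alpha (exact 95% interval 2.59 to 3.02, counting error only). The size rested on the length used. Of the starts of Hsp90aa1, 58.5% also occurred in other transcripts, chiefly the pseudogene Gm12346, against 4.49% for Hsp90ab1, and per free read start the difference shrank to -0.27, lower in 5 of 6 libraries and no longer past the test (adjusted p = 0.075). Outside the pair, Hsp90b1, the HSP90 of the endoplasmic reticulum (GRP94), had 21.6 ± 5.95 TPM although 60.8% of its exon bases lay inside other genes, and the mitochondrial Trap1 had 3.07 ± 1.03 TPM.

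**Figure D3:**
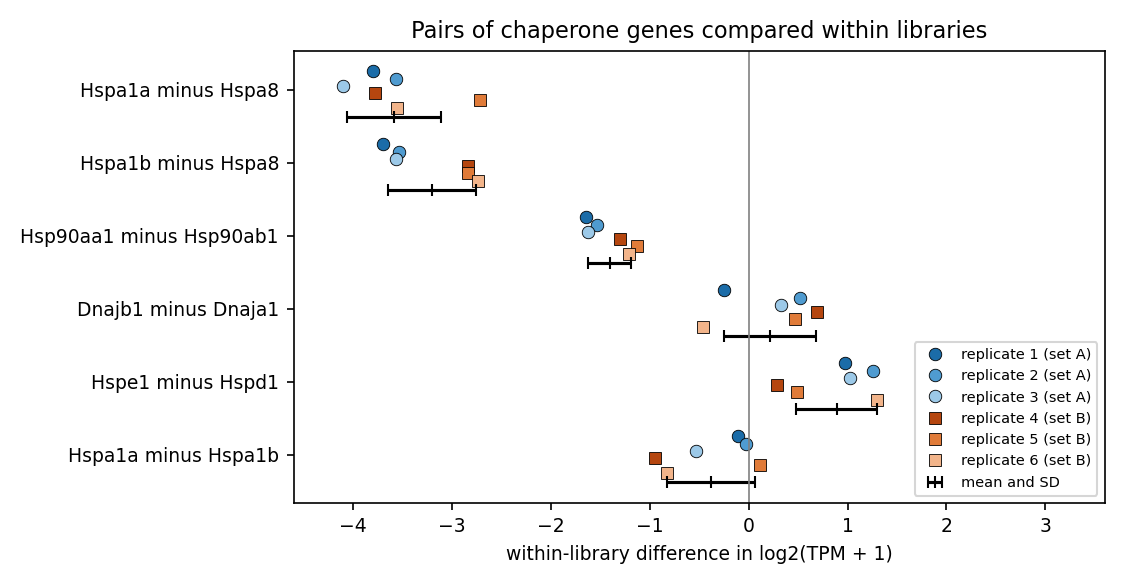
Within-library difference in log2(TPM + 1) for 6 pairs of genes (horizontal axis; first gene minus second), 1 point per library, circles for set A and squares for set B, with the mean and SD as a bar. The Hspa1a and Hspa1b points against Hspa8 and the Hsp90aa1 points against Hsp90ab1 lie below 0 in 6 of 6 libraries, the Hspe1 points against Hspd1 lie above 0 in 6 of 6, and the other pairs cross 0.

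The J-proteins, which load clients onto HSP70 and start its ATPase cycle, were both low. Dnaja1, the constitutive form (chromosome 4, 40722150 to 40737149), had 1.02 TPM in the lowest library, a median of 1.38 and 1.78 in the highest (mean 1.41 ± 0.289). Dnajb1, the inducible HSP40 gene (chromosome 8, 83608193 to 83612653), had 1.01 TPM in the lowest library, a median of 1.90 and 3.33 in the highest (mean 1.88 ± 0.844). Their ranges overlapped, with Dnajb1 higher in 4 of 6 libraries, and the difference of 0.22 ± 0.46 was within its SD (exact sign-flip p = 0.281, adjusted p = 0.281). Its sign rested on the length: it was -0.88 on CPM with no length scaling and -0.48 per free read start, each lower in 6 of 6 libraries (adjusted p = 0.0469). The exon length was 8629 bp for Dnaja1 and 3204 bp for Dnajb1, and no order of these genes is given here. Among 18 further J-protein genes the highest were those of the endoplasmic reticulum, Dnajc3 at 26.4 ± 3.66, Dnajb11 at 15.5 ± 2.56 and Dnajb9 at 10.1 ± 1.38 TPM, and 14 of the 18 averaged 1 TPM or more (median 2.04 TPM).

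Hspb1, the small heat shock protein HSP25 (chromosome 5, 135887919 to 135889563), was measured at a level near that of Hsp90aa1. It had 5.91 TPM in the lowest library, a median of 12.5 and 14.3 in the highest, with a mean of 11.3 ± 3.35 TPM (SD, n = 6), and ranked 573rd of the protein-coding genes. Its lower values were in replicates 4 and 5, and the other 4 libraries lay between 11.7 and 14.3 TPM. Among 8 other small heat shock proteins the lens and muscle chaperone gene Cryab had 8.86 ± 2.17 TPM, Hspb8, a partner of the co-chaperone BAG3, had 2.62 ± 0.951, and Hspb6 had 0.672 ± 0.371 TPM. Hspb3, Hspb9 and Cryaa had no counts in any library. For Cryaa no absence can be read, since 100% of its exon bases lay inside another gene.

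Hspd1 and Hspe1 encode HSP60 and HSP10, the barrel and the lid of the mitochondrial chaperonin, and lie head to head on chromosome 1 at 55077835 to 55088243 and 55088132 to 55091307, with the shared element shown above. Hspd1 had 5.13 TPM in the lowest library, a median of 5.82 and 8.52 in the highest (mean 6.34 ± 1.43). Hspe1 had 10.7 TPM in the lowest library, a median of 12.4 and 14.6 in the highest (mean 12.5 ± 1.74). The ranges did not meet, and Hspe1 minus Hspd1 was 0.89 ± 0.41 on the log2(TPM + 1) scale, higher in 6 of 6 libraries (exact sign-flip p = 0.031, adjusted p = 0.0469). The gap was smaller in replicates 4 and 5 (0.29 and 0.49) than in the other 4 libraries (0.97 to 1.30). The raw counts were near each other, 376 for Hspe1 and 334 for Hspd1, so that the difference without length scaling was 0.14 and did not pass (adjusted p = 0.375), while per free read start it was 1.97. Of 12 other mitochondrial chaperones and proteases, 11 averaged 1 TPM or more, led by the protease genes Clpp at 7.37 ± 2.57 and Clpx at 4.97 ± 1.44 TPM beside Hspa9. Spg7 had no counts, and 100% of its exon bases lay inside another gene.

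By mean TPM on exon length, which does not settle the place of Dnajb1 against Dnaja1 and Hspa1b, the genes ran Hsp90ab1, Hspa8, Hspe1, Hsp90aa1, Hspb1, Hspd1, Dnajb1, Dnaja1, Hspa1b and Hspa1a. Of the 9 neighbouring pairs, 5 differed by less than 1 SD of their within-library difference: Hspa8 and Hspe1 (0.26 ± 0.31), Hspe1 and Hsp90aa1 (0.04 ± 0.41), Hsp90aa1 and Hspb1 (0.13 ± 0.71), Dnajb1 and Dnaja1 (0.22 ± 0.46), and Hspa1b and Hspa1a (0.38 ± 0.44). The steps from Hsp90ab1 to Hspa8 (1.10 ± 0.29) and from Hspd1 to Dnajb1 (1.38 ± 0.24) held in 6 of 6 libraries on this scale. Per free read start the mean TPM of Hspa8 (111) and Hspe1 (52.4) was above that of Hsp90ab1 (42.7), and Dnaja1 (3.13) was above Dnajb1 (2.05). Hspa1b (2.21) was also above Dnajb1 on that scale, and Hspa1a had 1.53 TPM. On exon length, 8 of the 10 genes averaged 1 TPM or more, with a median of 8.81 TPM, against 32.3% and 0.493 TPM over all protein-coding genes.

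The regulators and partners of the response were present at widely different levels. Hsf1, the factor that drives heat shock genes, had 1.01 ± 0.466 TPM. Hsbp1, a small protein that binds HSF1, had 12.9 ± 3.62 TPM and was the highest of its list of 6 genes, of which 3 averaged 1 TPM or more. Hsf3 reached 1.69 ± 3.38 TPM through replicate 5 alone (8.58 TPM there, at most 0.565 TPM elsewhere), and its expected background was 100% of its counts. On a list of 15 further heat shock inducible genes, 10 averaged 1 TPM or more (median 2.40 TPM). It was led by the polyubiquitin gene Ubb at 40.6 ± 17.1 TPM, the HSP90 partner gene Fkbp4 at 11.8 ± 2.997 TPM and Cryab. Hsph1, an HSP110 gene raised with Hspa1a under heat, had 0.877 ± 0.173 TPM and is named here with its value known.

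A list of nucleotide exchange, BAG and other HSP70 partner genes, some of which help HSP70 release ADP, was led by Bag1 at 19.7 ± 3.33 TPM. The stress-inducible Bag3 at 5.07 ± 1.85 and Hspbp1 at 3.86 ± 2.05 followed, and 8 of 12 averaged 1 TPM or more. Of 16 HSP90 co-chaperones 12 did so, led by Fkbp4, the p23 gene Ptges3 at 6.71 ± 0.786 and Fkbp8 at 3.98 ± 0.751 TPM. The chaperonin TRiC and its helper prefoldin, which fold actin and tubulin, had 13 of 14 genes at 1 TPM or more and a median of 3.57 TPM, led by Pfdn5 at 18.7 ± 2.36 TPM, Pfdn1 at 13.1 ± 2.84 TPM and Cct5 at 9.83 to 14.7 TPM. Immediate early genes, which cell dissociation can raise, were measured beside them, since the cells had been sorted. Of 19 such genes 16 averaged 1 TPM or more (median 5.55 TPM), with Fos at 36.9 ± 10.9, Ier2 at 21.02 ± 4.71 and Btg2 at 18.6 ± 7.41 TPM, while Hspa1a and Hspa1b summed to a mean of 1.17 TPM in the same libraries. A part of dissociation in any of these levels was not tested.

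**Figure D4:**
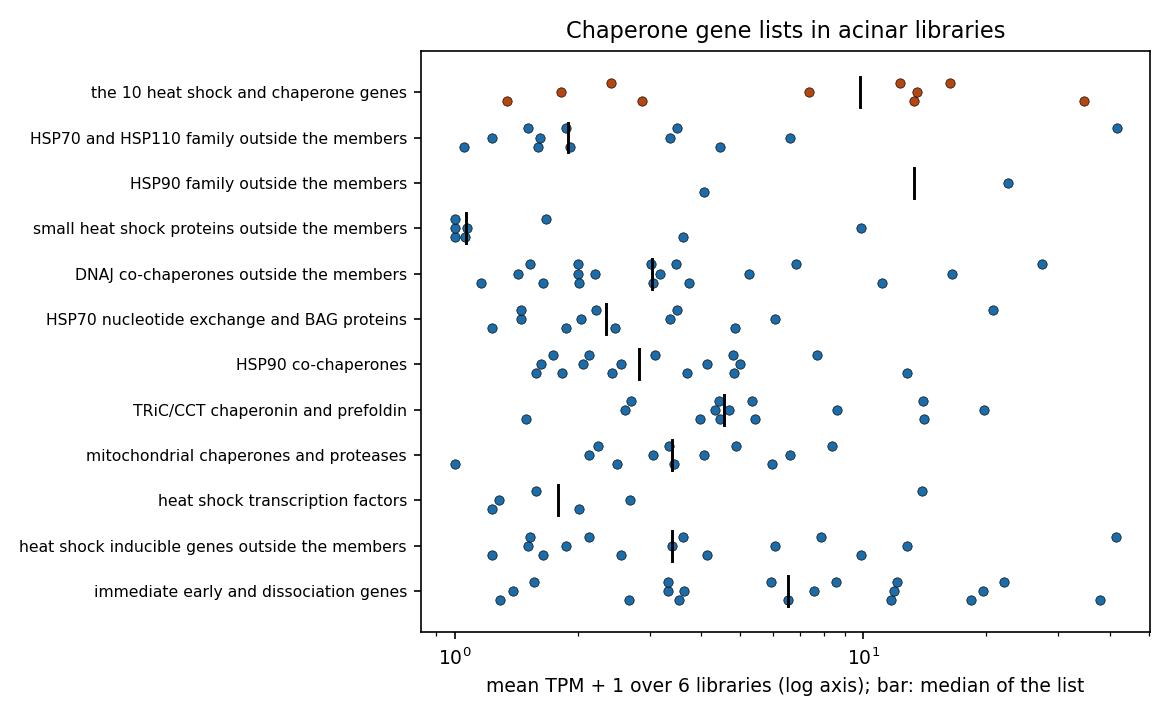
Mean TPM + 1 over 6 libraries (horizontal log axis), 1 point per gene, for the 10 heat shock and chaperone genes and 11 lists of related genes, with a bar at the median of each list. The 10 genes have a median of 8.81 TPM, the immediate early list 5.55 TPM and the small heat shock proteins outside the 10 a median of 0.0666 TPM.

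All libraries have the same labels, and the name-based sets were compared only as a possible batch, of unstated meaning. Of the 10 genes, 8 passed the filter on low counts, and Hspa1a and Hspa1b did not. None of the 8 was called between the sets (edgeR's quasi-likelihood test with Benjamini-Hochberg adjustment over all 8723 genes tested), where 0.0115% of genes were called in all. At an unadjusted p under 0.05 there was 1 of the 8 and 2258 of 8723 genes, and DESeq2 called 0 of the same 8 and 7.89% of 9930 genes. The 1 gene was Hspb1, with 13.3 ± 1.39 TPM in set A and 9.23 ± 3.67 in set B and a log2 difference of -0.98 (SE 0.40, adjusted p = 0.163), and -0.32 with library totals without ribosomal RNA. On the same scale Hspa8 had -0.60 (SE 0.36), Hspe1 -0.57 (SE 0.30) and the other 5 between -0.24 and 0.18. The Hspa8 value was -0.30 without replicate 5 and -1.01 without replicate 4. In the related lists edgeR called 0 genes in either direction. At an unadjusted p under 0.05, 9.76% of all genes tested were lower in set B, as were 6 of 11 mitochondrial chaperone and protease genes, 4 of 15 HSP90 co-chaperones, 4 of 12 inducible genes and at most 3 genes of any other related list. DESeq2 called Hspa9, Dnajc3, Stub1, Fkbp5, Tcp1, Htra2, Ubb and Btg2 from these lists, each lower in set B. These were 2 of 11 mitochondrial chaperone and protease genes tested and at most 1 gene of any other related list. Over all 9930 genes DESeq2 called 230 lower and 553 higher in set B. Beside them 7 of 10 acinar markers were lower at an unadjusted p under 0.05. DESeq2 called 6 of the 10 lower, and of 4 endocrine markers tested it called Ins1, Ins2 and Chga higher. The part of cell makeup in these values was not tested.

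Hsp90aa1 was called under 1 scaling and not under others. By TPM its set A values were 8.78, 10.2 and 9.58 and its set B values 15.6, 14.1 and 15.6, with no overlap. Hsp90ab1 also lay higher in set B with no overlap (29.6 to 31.5 against 31.9 to 40.01 TPM). That made 2 of the 8 genes with a mean of 1 TPM or more, against 32.8% of the protein-coding genes at that level, and 0 of 8 lay lower without overlap, against 6.62%. After edgeR's TMM scaling, Hsp90aa1 differed by 0.18 (SE 0.27, adjusted p = 0.716), whereas with library totals without ribosomal RNA it differed by 0.86 (adjusted p = 0.0489), under which 16.9% of all genes were called and the median gene moved by 0.71. The median over all genes was -0.0040 under TMM. Ribosomal RNA took 38.1% to 46.8% of counts in set A and 59.9% to 60.9% in set B, and its part in the Hsp90aa1 values was not tested.

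The ratio of Hsp90aa1 to Hsp90ab1 does not depend on such scaling apart from the pseudocount. It was -1.64 to -1.53 in set A and -1.31 to -1.13 in set B, and Hspa1b minus Hspa8 was -3.69 to -3.54 in set A and -2.84 to -2.73 in set B. Neither pair overlapped between the sets, but 3 libraries against 3 allow no exact permutation p under 0.1, which both reached (adjusted p = 0.3 over 6 pairs). The remaining 4 pairs overlapped, and the share of all gene pairs that part without overlap was not computed. In replicate 5 the Hspa1b value rested on 3 counts, of which 0.916 were expected from background. Its 0.502 TPM there lay within the set A values of 0.242 to 0.572 TPM, while Hspa8 was at its lowest, 9.70 TPM. At such low levels the added pseudocount of 1 also weighs on the Hspa1b difference. In replicates 4, 5 and 6 the sum of endocrine markers was 1005, 41.5 and 2237 TPM. The Hsp90 difference in these libraries was -1.31, -1.13 and -1.21, and Hspa1b had 16, 3 and 14 counts. The part of endocrine cells in the set difference was not tested. Within each set the direction of the 3 inducible against constitutive differences named above was the same, at -3.82, -3.599 and -1.60 in set A and -3.35, -2.80 and -1.21 in set B for Hspa1a, Hspa1b and Hsp90aa1.

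Hspa8 and the sum of Hspa1a and Hspa1b served as references for likeness across the 6 libraries, measured as the SD of the log2(TPM + 1) ratio over 1314 other protein-coding genes with a mean of 5 TPM or more. Closest to Hspa8 were Zbtb16 (SD 0.083), Lgals1 (0.086) and Idh3g (0.099), against a median of 0.372. Closest to the sum of Hspa1a and Hspa1b were Rpn1 (0.071), Hsp90b1 (0.132) and Atp5g1 (0.138), against a median of 0.538. Among the 10 genes, Hsp90aa1 was nearest to that sum (0.156) apart from Hspa1b, which is in it, and Dnaja1 (0.286) and Hsp90ab1 (0.291) were nearest to Hspa8. The sum of Hspa1a and Hspa1b held only 5 to 20 counts per library, and their counting error was not taken into account. The added pseudocount of 1 also narrows the SD for low genes such as Dnaja1 (mean 1.41 TPM). With 6 libraries and 1314 genes compared, these are descriptions only.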

How the data were processed

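RNA from 300 sorted cells per library was made into libraries by Smart-seq2 with changes, among them 12 preamplification cycles, per the labels' protocols. The submitters' processing notes name Trim Galore 0.6.4, FastQC, STAR 2.7.9a, SAMtools, featureCounts and build mm10. The files as deposited hold whole-number counts for each symbol, not normalized, and a length in bp. For all 55253 symbols with 1 interval that length is the whole span, introns included. Annotation release, strand setting and treatment of reads with several alignments are not given in the sources used here. The labels call the molecule genomic DNA.

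Exon lengths came from GENCODE M21 (55129 symbols, 99.96% of counts). TPM used totals over all genes, ribosomal RNA included, and levels were compared as log2(TPM + 1). Background per Mb came from 1491 receptor genes spanning 13.0 Mb with 7561 counts. The genes, the lists and the rule for named genes (all 10 genes, the 3 highest of each list, list genes without counts, the 3 most alike genes) were chosen with earlier results of these data known. Hsph1, the pseudogenes and the genes called by DESeq2 were named after their values were seen. For each pair all 64 sign patterns of the library differences were enumerated (exact test, two-sided), with Benjamini-Hochberg adjustment at 0.05. For the sets, the quasi-likelihood test of edgeR 4.0.16 was used after filterByExpr and TMM scaling, with DESeq2 1.42.0 as an alternative, in R 4.3.3. On simulated data for the set comparison over 8723 genes, edgeR recovered 70% of 100 genes changed 4-fold and 5% of 100 changed 2-fold. Other steps used scipy 1.17.1, Biopython 1.88, pandas 2.3.3 and matplotlib 3.10.9 in Python 3.11.15. Alternatives were another pseudocount, other lengths, background subtraction, totals without ribosomal RNA, no filter and leaving out each library. The lengths by free read starts and by main transcript were chosen after seeing the data.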

Additional observations from a re-analysis of the deposited data

Results flagged for a closer look

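Of 16 quantities checked over the 6 libraries (10 levels and 6 pair differences), 1 had a value far from the rest. Hspa8 had 9.70 TPM in replicate 5, where the next lowest library had 15.1 TPM, a gap of 0.627 of the whole range against a limit of 0.625 (Dixon's test at 95%). Chance flags about 1 in 20 such groups. Replicate 5 also had the highest background, 327 counts per Mb, and the lowest total, 4670819 counts.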

How the results depend on the processing

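The Hspa1a and Hspa1b differences from Hspa8 kept their direction and passed the exact test under all 7 alternatives that used 6 libraries, at -2.96 to -5.53 and -2.49 to -5.25. Hsp90aa1 minus Hsp90ab1 passed under 6 of them and was -0.27 per free read start. Hspe1 minus Hspd1 was 0.14 on CPM and passed under the other 6. Dnajb1 minus Dnaja1 took the opposite sign on CPM (-0.88), per free read start (-0.48) and by main transcript length (-0.11). With 5 libraries the exact test can reach no adjusted p under 0.05, so the pairs do not pass by construction: without each library in turn Hspa1a minus Hspa8 was -3.76 to -3.48, Hspa1b minus Hspa8 -3.29 to -3.10, Hsp90aa1 minus Hsp90ab1 -1.46 to -1.36 and Hspe1 minus Hspd1 0.81 to 1.01.

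The count of genes called between the sets, 1 by edgeR, was 783 with DESeq2, 993 without a filter on low counts, 1476 with library totals without ribosomal RNA, and 0 to 2217 without each library in turn (2217 without replicate 4, 735 without replicate 5 and 0 without any of the others). The cause was not tested. With totals without ribosomal RNA, set B minus set A changed sign for Hspa8 (0.048), Hsp90ab1 (0.44), Dnaja1 (0.50), Dnajb1 (0.60), Hspd1 (0.57) and Hspe1 (0.11), none of them called, Hspb1 was -0.32, and Hsp90aa1 was called at 0.86. Hsp90aa1 was -0.059 without a filter. Without each library in turn the difference was -1.01 to -0.30 for Hspa8, -1.38 to -0.67 for Hspb1, -0.057 to 0.35 for Hsp90aa1, -0.43 to 0.069 for Dnaja1, -0.88 to 0.25 for Dnajb1 and -0.53 to 0.0067 for Hspd1. No paired analysis was possible because all libraries belong to 1 group. Depth limits Hspa1a and Hspa1b most, with 19 and 46 counts in all.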
